A study of Rattus norvegicus with 90 samples.

Results

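Liver transcripts of late-pregnant rats given low oral doses of Nafion byproduct 2 (NBP2) were compared with those of control dams, labelled with a dose of 0. NBP2 is a polyfluorinated ether sulfonic acid formed in the making of a fluoropolymer. The members are the maternal liver libraries titled GD21 (gestation day 21) with a dose of 0, 1 or 3 mg/kg/d, 9 of the 90 libraries of the series. Of these, 3 are controls, 3 come from dams given 1 mg/kg/d and 3 from dams given 3 mg/kg/d, and each library is the liver of 1 dam. The low doses were pooled (n = 6) against control (n = 3) and also one by one.

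All dams were Sprague-Dawley rats (Crl:CD(SD), about 90 days old) with timed matings, and the groups differed in their dose of NBP2. Dams were dosed by mouth from gestation day 17 to 21 and killed 2 to 4 h after the last dose. The titles say day 21 while the age entries of the same samples say 20, and all 9 libraries carry study block 144. The assay, TempO-Seq, ligates pairs of short probes on each transcript and counts the ligated pairs by sequencing, with probes for the most abundant transcripts attenuated. Dams at 10 and 30 mg/kg/d in the same block (3 each) were used for reference. Their libraries also entered the main GD21 fit, and so its filter, scaling and estimate of spread. Dams at GD18 from an earlier study, dosed on days 14 to 18 (6 controls, 8 at 1 or 3 mg/kg/d), were used for reference only.

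The 9 libraries held 3547270 to 6232265 counts, with 12096 to 12716 genes detected in each. All 10 hepatocyte markers on the panel, Alb among them, were above 0 in all 9 libraries. In 1 library, that of dam 2132 at 1 mg/kg/d, the median correlation with the other libraries was 0.941, against 0.970 to 0.975 for the remaining 8, so the estimates it bears on most are also given without it. In bulk tissue, fewer cells of a type and less RNA per cell cannot be told apart.

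Liver cells sense foreign and fatty compounds through nuclear receptors that switch on whole groups of enzymes. The constitutive androstane receptor (CAR, gene Nr1i3) and the pregnane X receptor (PXR, gene Nr1i2) drive the cytochromes P450 of the Cyp2b and Cyp3a families, which oxidise drugs. PPAR-alpha, a receptor for fatty acids and for many perfluorinated acids, drives the enzymes that burn fat in peroxisomes and mitochondria and the Cyp4a enzymes. In late pregnancy and in fasting the liver also turns to gluconeogenesis, with Pck1 and G6pc as its committed enzymes.

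The results turn on Cyp2b1 and Cyp2b2, a pair of near copies, and on Cyp3a23/3a1, so the 250 bases before each start site are shown to make visible how alike the copies are and where the third gene differs. The sequences are those of RefSeq on build GRCr8: Cyp2b1 at chr1:90645869-90646118 (plus strand), Cyp2b2 at chr1:90722031-90722280 (plus strand) and Cyp3a23-3a1 at chr12:14398804-14399053 (minus strand). In the Cyp2b pair capitals mark the bases that differ when the 2 stretches are aligned. In Cyp3a23-3a1 capitals mark AGGTCA and AGTTCA on either strand, the half-sites that nuclear receptors are known to bind.
Cyp2b1: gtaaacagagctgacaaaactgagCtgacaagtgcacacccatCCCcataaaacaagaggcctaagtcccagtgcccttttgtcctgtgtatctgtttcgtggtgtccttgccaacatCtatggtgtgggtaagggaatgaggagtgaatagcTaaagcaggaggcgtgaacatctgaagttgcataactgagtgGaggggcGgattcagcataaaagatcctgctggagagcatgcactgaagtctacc
Cyp2b2: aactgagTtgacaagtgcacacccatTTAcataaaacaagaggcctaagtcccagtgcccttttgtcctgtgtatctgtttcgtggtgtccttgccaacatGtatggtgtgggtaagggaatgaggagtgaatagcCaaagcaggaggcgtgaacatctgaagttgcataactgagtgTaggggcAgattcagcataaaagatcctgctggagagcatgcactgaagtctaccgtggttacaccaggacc
Cyp3a23-3a1: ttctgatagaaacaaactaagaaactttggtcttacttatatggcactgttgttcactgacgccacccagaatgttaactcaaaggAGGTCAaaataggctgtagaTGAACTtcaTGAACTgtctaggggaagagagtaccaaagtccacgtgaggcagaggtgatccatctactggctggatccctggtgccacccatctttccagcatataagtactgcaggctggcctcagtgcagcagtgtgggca
Over 233 aligned bases the Cyp2b stretches were 96.6% identical, with 8 differing bases and 0 gaps. Neither Cyp2b stretch holds AGGTCA or AGTTCA. The Cyp3a23-3a1 stretch holds AGGTCA 164 bases before the start and AGTTCA, as its reverse complement, 144 and 135 bases before it, which makes a direct repeat with 3 bases between. AGGTCA occurs in 14.1% and AGTTCA in 12.2% of 33469 promoter stretches of this length, and the repeat in 2 of them (0.00598%), those of Cyp3a2 and Cyp3a23-3a1. These matches are a description of letters and were not linked to binding by any measurement here.

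No gene passed the threshold (edgeR quasi-likelihood test, Benjamini-Hochberg adjusted p below 0.05) at the low doses. Of 9238 genes tested 0 (0%) passed for both doses together, 0 (0%) for 1 mg/kg/d, 0 (0%) for 3 mg/kg/d and 0 (0%) for the 3 against the 1 mg/kg/d dams, with smallest adjusted p of 0.813, 0.408, 0.499 and 0.218. In the same block 5 genes (0.0541%) passed at 10 mg/kg/d and 31 (0.336%) at 30 mg/kg/d. DESeq2 on the same counts called 3, 4, 5 and 4 genes in the 4 low-dose comparisons. At an unadjusted p below 0.05 edgeR gave 545 genes (5.9%) for the low doses together, 299 higher (3.24%) and 246 lower (2.66%). For 1 mg/kg/d it gave 806 genes (8.72%), 476 higher (5.15%) and 330 lower (3.57%). For 3 mg/kg/d it gave 366 genes (3.96%), 231 higher (2.5%) and 135 lower (1.46%). A share of about 5% is what such a threshold gives when no gene differs. These counts moved with single dams. At 1 mg/kg/d the count was 404 without dam 2132, 1274 without dam 2133 and 1349 without dam 2134. For both doses together it was 342 without control dam 2130, 759 without dam 2133 and 769 without dam 2134. The gene values that follow are therefore estimates with their errors, and members named in them did not pass the adjusted threshold in the edgeR fit unless that is said.

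Cyp2b1, the phenobarbital-inducible cytochrome P450 that is the usual readout of CAR, had the smallest p of all tested genes with the low doses pooled. In CPM (counts relative to a library size scaled by TMM factors) the controls had 25.0, 20.3 and 19.7, the 1 mg/kg/d dams 61.8, 42.1 and 49.4, and the 3 mg/kg/d dams 75.1, 57.0 and 76.7. All 6 low-dose dams lay above all 3 controls, an order that 129 of 9238 genes (1.4%) had, while 125 (1.35%) had the reverse order. The group means were 21.7 ± 2.89, 51.1 ± 9.93 and 69.6 ± 10.9 CPM (SD, n = 3 each). The log2 fold change was 1.46 ± 0.30 (SE, 95% interval 0.82 to 2.11) for both doses together, with an edgeR adjusted p of 0.813 and an unadjusted p of 0.000191. It was 1.24 ± 0.33 at 1 mg/kg/d and 1.69 ± 0.33 at 3 mg/kg/d. The doses did not differ past the threshold, with a log2 difference of 0.44 (95% interval -0.24 to 1.12). The call of Cyp2b1 turned on the tool, on the libraries in the fit and on the filter. DESeq2 gave an adjusted p of 0.00155 for both doses together and 0.00147 for 3 mg/kg/d. An edgeR fit on the 9 libraries alone gave adjusted p of 0.0470 and 0.0322 for the same 2 comparisons, and 0.117 with the low doses as 1 group. With no filter on low counts edgeR gave adjusted p of 2.14e-11 and 2.83e-12. In that fit the prior degrees of freedom, the weight of the spread shared between genes, were 1252 in place of 5.78. The spread of Cyp2b1 itself thus counted for little there. At 10 mg/kg/d Cyp2b1 rose by 4.16 on the log2 scale (edgeR adjusted p 3.7e-05) and at 30 mg/kg/d by 5.91 (6.7e-07). Leaving out dam 2132 left the low-dose estimate at 1.38.

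Cyp2b2, the near copy of Cyp2b1 with the same inducers, had wider controls. They read 31.0, 12.6 and 41.7 CPM, the 1 mg/kg/d dams 38.8, 111 and 46.4, and the 3 mg/kg/d dams 188, 153 and 115. The 1 mg/kg/d dams overlapped the controls, and the 3 mg/kg/d dams lay above both groups. The log2 fold change was 1.20 ± 0.48 at 1 mg/kg/d (95% interval 0.18 to 2.22) and 2.42 ± 0.49 at 3 mg/kg/d (1.37 to 3.46), and the doses differed by 1.22 (0.22 to 2.21, edgeR adjusted p 0.767). At 3 mg/kg/d DESeq2 gave Cyp2b2 an adjusted p of 0.0230. The value at 1 mg/kg/d was 0.58 without dam 2133, the dam at 111 CPM, and 1.47 without dam 2132. Leaving out dam 2132 gave 1.95 for both doses together, against 1.81 with it. All values of Cyp2b1 and of Cyp2b2 in the deposited table are fractional, so reads were divided between genes and the split of the pair is uncertain. The ratio of Cyp2b1 to Cyp2b2 ran from 0.372 to 1.62 over the 9 libraries, so the pair did not simply share 1 total in a fixed ratio. On rn6 the deposited table places Cyp2b1 at chr7:99142450-99181784 and Cyp2b2 at chr1:83103925-83119194, so its chromosome for Cyp2b1 is not that of the RefSeq entry.

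Cyp3a23/3a1, the cytochrome that PXR induces most strongly in rat liver, was separated from the controls only in the higher of the low doses. Its controls had 165, 158 and 187 CPM, the 1 mg/kg/d dams 89.9, 216 and 201, and the 3 mg/kg/d dams 325, 266 and 300. The log2 fold change was -0.01 ± 0.40 at 1 mg/kg/d (95% interval -0.87 to 0.85) and 0.80 ± 0.41 at 3 mg/kg/d (-0.06 to 1.67). The value at 1 mg/kg/d turned to 0.30 without dam 2132 and to 0.06 without control dam 2131. AABR07035374.1, a processed transcript that the table sets at chr12:11663683-11677831, within Cyp3a23/3a1 at chr12:11655402-11733137 (rn6), had the same order. Its controls had 31.8, 25.3 and 29.4 CPM, the 1 mg/kg/d dams 27.2, 34.3 and 35.5, and the 3 mg/kg/d dams 66.6, 62.8 and 70.7. Every 3 mg/kg/d dam lay above the other 6, with a log2 difference between the doses of 1.04 ± 0.34 (0.32 to 1.76, edgeR adjusted p 0.767). Since both models overlap, their reads cannot be told apart here. At 10 and 30 mg/kg/d Cyp3a23/3a1 rose by 3.08 and 4.65 on the log2 scale.

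Dhrs7l1, a member of the short-chain dehydrogenase family, gave the lower dose the larger estimate. Controls had 5.57, 12.4 and 5.29 CPM, the 1 mg/kg/d dams 76.4, 36.8 and 28.0, and the 3 mg/kg/d dams 19.6, 36.6 and 5.72. The 1 mg/kg/d dams all lay above the controls, while 1 of the 3 dams at 3 mg/kg/d lay among them. The log2 fold change was 2.60 ± 0.52 at 1 mg/kg/d (edgeR adjusted p 0.408, DESeq2 adjusted p 0.0265) and 1.42 ± 0.53 at 3 mg/kg/d. The value for both doses was 2.01 with dam 2132 and 1.74 without it. Dhrs7l1 rose at 10 and 30 mg/kg/d, by 3.39 and 4.67.

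Of the 24 tested genes of the list of CAR and PXR targets, 0 passed the adjusted threshold at the low doses, 5 were higher and 0 lower at an unadjusted p below 0.05, and 2 had every low-dose dam above every control. Over all tested genes 3.24% were higher, 2.66% lower and 1.4% in that order. The 5 are Cyp2b1, Cyp2b2, Dhrs7l1 and the glutathione transferases Gsta2 and Gsta5. The median log2 fold change of the list was 0.25, against 0.01 over all tested genes. It was 0.12 at 1 mg/kg/d, with 4 genes higher at that p, beside 5.15% of all tested genes at that dose. At 3 mg/kg/d it was 0.22, with 6 higher, beside 2.5% of all tested genes. Gsta2 had 289, 220 and 238 CPM in controls, 525, 239 and 381 at 1 mg/kg/d, and 389, 400 and 327 at 3 mg/kg/d, with a log2 fold change of 0.60 ± 0.22 for both doses together, and 0.45 without dam 2132. The other members did not reach an unadjusted p below 0.05 with both doses together, and those that follow lay on either side of 0. Ephx1, the microsomal epoxide hydrolase, had 110, 99.9 and 86.5 CPM in controls against 90.4 to 123 in the low-dose dams (0.10 ± 0.21), and it rose by 2.08 at 30 mg/kg/d. For Slco1a4, an organic anion transporter, the low-dose value was -0.15, and for Ugt1a6, a glucuronosyltransferase, it was -0.20. Por, which passes electrons to the cytochromes, had -0.51 ± 0.48.

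**Figure D1:**
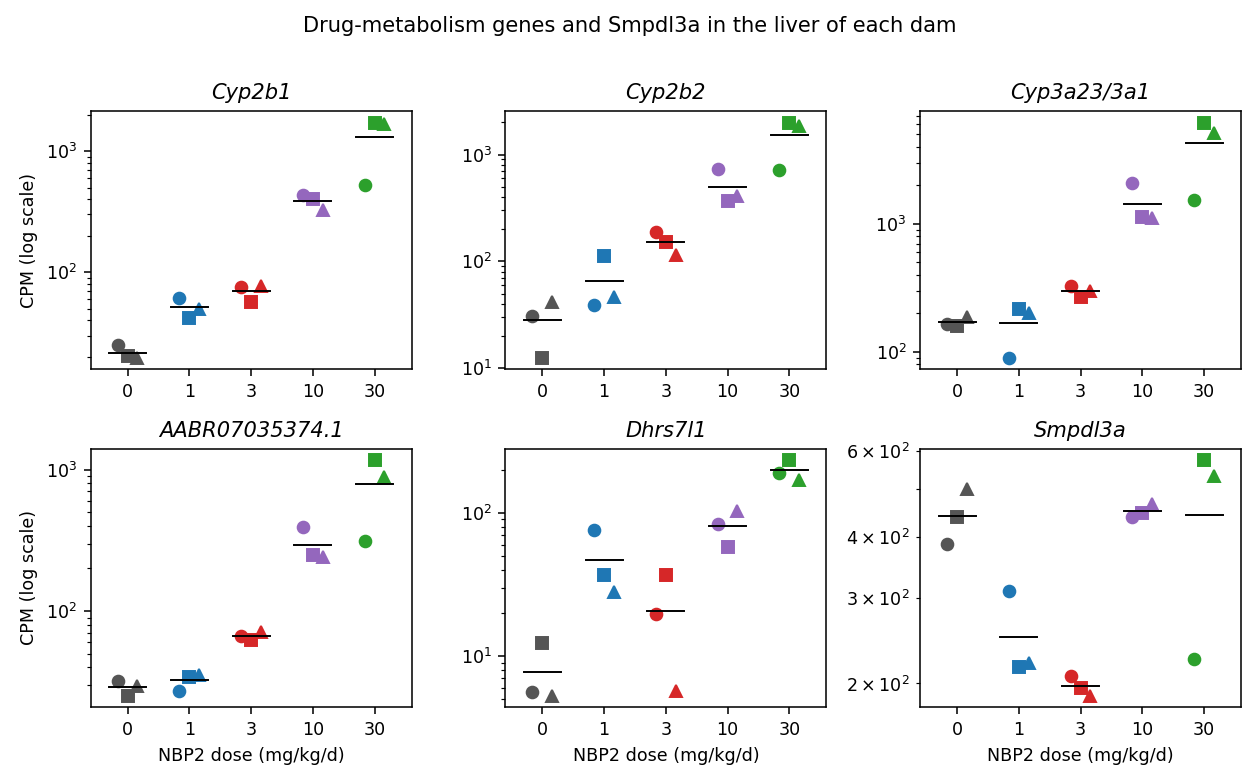
CPM (log scale) of Cyp2b1, Cyp2b2, Cyp3a23/3a1, AABR07035374.1, Dhrs7l1 and Smpdl3a by NBP2 dose in mg/kg/d; each point is 1 dam, with the symbol marking the dam within its group, and each bar is the mean of 3 dams. Cyp2b1 runs from 19.7 to 25.0 in controls, from 42.1 to 76.7 at the low doses and to 1719 at 30 mg/kg/d, whereas Smpdl3a is low only at 1 and 3 mg/kg/d and in 1 dam at 30 mg/kg/d.

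The receptors' own transcripts were also on the panel. Nr1i3 (CAR) had 1.44, 0.53 and 1.32 CPM in controls, 2.13, 2.12 and 1.99 at 1 mg/kg/d, and 1.46, 0.92 and 1.56 at 3 mg/kg/d, with log2 fold changes of 0.92 ± 0.49 and 0.26 ± 0.54, and it rose by 2.57 at 30 mg/kg/d. Nr1i2 (PXR) had log2 fold changes of -0.14 ± 0.13 and -0.15 ± 0.13 at the 2 low doses. Ppara, the gene of PPAR-alpha, had 0.47 ± 0.33 and -0.01 ± 0.34. Of the 21 nuclear receptors tested, only Esrra was higher at an unadjusted p below 0.05 with both doses pooled, beside 3.24% of all tested genes. A count of 1 in 21 is near that background and is no result about the receptors. Esrra, a regulator of mitochondrial genes, had 2.68, 3.36 and 4.14 CPM in controls and 4.37 to 6.70 in the low-dose dams.

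The targets of PPAR-alpha had low-dose medians close to that of all genes. Of 23 tested genes of the list 1 was higher and 0 lower at an unadjusted p below 0.05, beside 3.24% and 2.66% of all tested genes, and the median log2 fold change was -0.05. Ehhadh, the bifunctional enzyme of peroxisomal beta-oxidation, had 34.7, 44.6 and 70.0 CPM in controls, 63.3, 52.6 and 56.8 at 1 mg/kg/d, and 44.9, 55.2 and 48.6 at 3 mg/kg/d. All of its low-dose dams lay within the range of the controls, and the log2 fold change was 0.10 ± 0.25 (95% interval -0.44 to 0.64). At 30 mg/kg/d Ehhadh rose by 2.46 (edgeR adjusted p 0.00049). Cyp4a1, a fatty acid omega-hydroxylase, had 94.8, 119 and 147 CPM in controls against 99.3 to 185 in the low-dose dams (0.21 ± 0.22, -0.26 to 0.68). Cyp4a2 and Cyp4a3 each had 0.08 ± 0.26, and their ratio was 0.606 to 0.608 in every library, so the table holds 1 measurement for the pair. Acot1, a cytosolic acyl-CoA thioesterase, had 0, 0 and 6.62 CPM in controls and at most 1.06 in the low-dose dams, so its fold change rests on 1 control dam. Vnn1, a pantetheinase, had -0.37 ± 0.48 with 1 control of 73.1 against 16.4 and 22.9 in the others. Fabp1, the liver fatty acid binding protein, had -0.14 ± 0.20. For Ehhadh and Cyp4a1 the low-dose intervals end below the 30 mg/kg/d estimates of the same genes, 2.46 and 2.14.

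That 1 member was Pdk4, the kinase that shuts off glucose oxidation. A count of 1 in 23 is near the background and is no result about the list. Its controls had 7.84, 7.78 and 12.2 CPM, the 1 mg/kg/d dams 32.0, 11.9 and 31.8, and the 3 mg/kg/d dams 7.51, 15.2 and 8.84. The log2 fold change was 1.43 ± 0.38 at 1 mg/kg/d, 1.21 there without dam 2132, and 0.17 ± 0.40 at 3 mg/kg/d. Cpt1a, the gate of fatty acid entry into mitochondria, had 0.59 ± 0.34 and 0.28 ± 0.34.

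Fat oxidation genes of the other lists gave more low than high estimates at that p. Of 26 peroxisomal genes 0 were higher and 3 lower at an unadjusted p below 0.05 (Phyh, Slc27a2 and Nudt19, median -0.06), and of 22 mitochondrial genes 0 were higher and 3 lower (Echs1, Etfdh and Acsm3, median -0.06). Phyh, which starts the alpha-oxidation of phytanic acid, had 621, 901 and 1207 CPM in controls and 570 to 740 in the low-dose dams, with overlap (log2 fold change -0.50 ± 0.18). Nudt19, a peroxisomal hydrolase, had 41.7, 46.1 and 37.2 against 17.5 to 36.6, without overlap (-0.64 ± 0.23). At an unadjusted p below 0.05 the share of all tested genes lower was the 2.66% given above. Fasn, the fatty acid synthase, had -0.45 ± 0.42 at 1 mg/kg/d and 0.52 ± 0.40 at 3 mg/kg/d. Of 20 genes of cholesterol synthesis 1 was lower, Msmo1, and of 17 NRF2 targets 0 were in either direction.

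**Figure D2:**
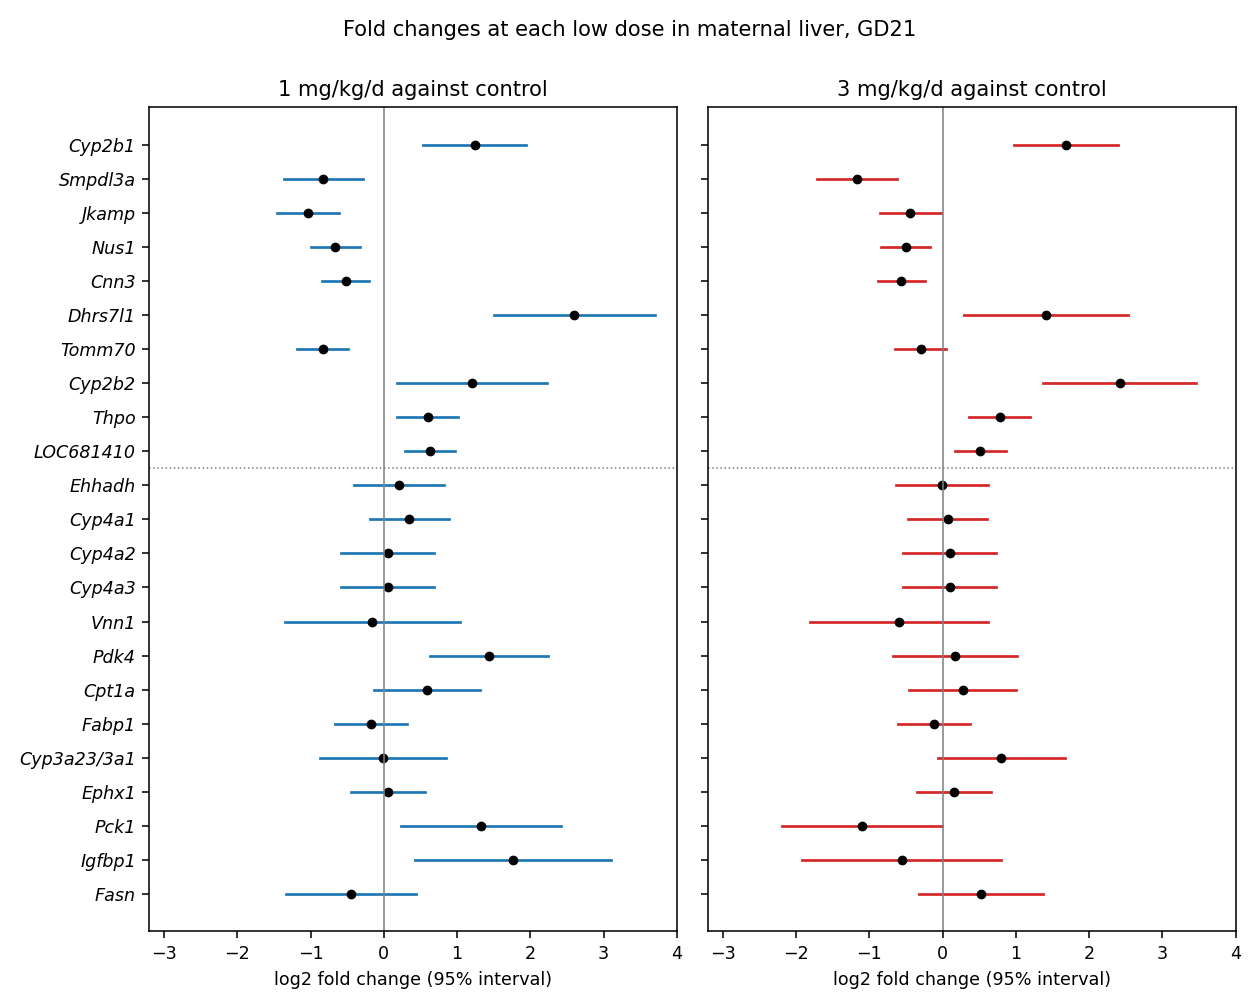
Log2 fold change against control (dots) with 95% intervals (lines) at 1 and at 3 mg/kg/d, for the 10 genes of smallest p with both doses together (above the dotted line) and for reference genes of the receptor pathways, glucose and lipids (below it). Cyp2b1 is at 1.24 and 1.69 and Dhrs7l1 at 2.60 and 1.42, while Ehhadh sits near 0 in both panels and Pck1 is at 1.33 and -1.10.

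Smpdl3a, a secreted phosphodiesterase related to acid sphingomyelinase, was the gene of second smallest p and was lower at both doses. Controls had 386, 440 and 500 CPM, the 1 mg/kg/d dams 310, 216 and 221, and the 3 mg/kg/d dams 207, 196 and 189. All 6 low-dose dams lay below all controls. The log2 fold change was -0.995 ± 0.21 (95% interval -1.45 to -0.54, edgeR adjusted p 0.813, DESeq2 adjusted p 0.0361), -0.83 ± 0.25 at 1 mg/kg/d and -1.16 ± 0.26 at 3 mg/kg/d, and it was -1.09 without dam 2132. The higher doses did not continue the order: the 10 mg/kg/d dams had 439, 447 and 466 CPM, and the 30 mg/kg/d dams 225, 573 and 534, with log2 fold changes of 0.03 and 0.01. The table places Smpdl3a at chr20:40778927-40800869 (rn6).

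The rest of the 10 genes of smallest p with both doses pooled were Jkamp, Tomm70, Nus1, Cnn3, Thpo and LOC681410. Jkamp, a membrane protein that binds the kinase JNK1, had 20.0, 31.5 and 19.7 CPM in controls, 10.3, 12.4 and 12.1 at 1 mg/kg/d, and 15, 18.6 and 19.0 at 3 mg/kg/d, with a log2 fold change of -1.03 ± 0.20 at the lower dose (edgeR adjusted p 0.408). At that dose Jkamp passed the threshold in DESeq2 and in edgeR with no filter on low counts. Tomm70, a receptor of the mitochondrial import pore, had 45.0, 49.7 and 48.6, then 22.2, 31.3 and 26.8, then 35.9, 40.0 and 40.8 (-0.84 ± 0.16 at 1 mg/kg/d). In both genes the 1 mg/kg/d dams were the lowest group and the 3 mg/kg/d dams lay between. Nus1, a subunit of the enzyme that makes dolichol, had -0.58 ± 0.13 for both doses together and Cnn3, an actin-binding calponin, -0.54 ± 0.13. Thpo, the hormone that drives platelet formation, had 20.4, 14.0 and 18.0 CPM in controls, 24.7, 25.7 and 29.0 at 1 mg/kg/d, and 35.5, 25.8 and 28.6 at 3 mg/kg/d (0.69 ± 0.17). LOC681410 had 0.57 ± 0.14. At 30 mg/kg/d Thpo was at 0.03, Nus1 at -0.31 and Cnn3 at -0.17.

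At 3 mg/kg/d the list of the 10 smallest p also held Marc1, Marco, Clasp2 and Fbxo3. Marc1, a mitochondrial amidoxime reductase, had 230, 236 and 281 CPM in controls, 450, 457 and 490 at 1 mg/kg/d, and 744, 414 and 395 at 3 mg/kg/d. All low-dose dams were above the controls (log2 fold changes of 0.91 ± 0.30 and 1.06 ± 0.30), while at 10 mg/kg/d Marc1 had 220, 141 and 224 CPM. Marco, a scavenger receptor of Kupffer cells, had 183, 304 and 167 in controls, 123, 221 and 164 at 1 mg/kg/d, and 107, 124 and 124 at 3 mg/kg/d (-0.88 ± 0.25 at the latter). Clasp2, which steadies microtubules, had 0.74 ± 0.17 and Fbxo3, part of a ubiquitin ligase, -0.53 ± 0.15. At 1 mg/kg/d the 10 also held Slc25a47, Tsc2, Gcnt2 and Rab17, of which Slc25a47 and Rab17 had their highest value in dam 2132.

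The 10 genes of smallest p between the 2 low doses held Pck1, G6pc and Lpin1, genes that fasting is known to raise. Pck1 had 419, 311 and 1205 CPM in controls, 2550, 843 and 1462 at 1 mg/kg/d, and 317, 284 and 300 at 3 mg/kg/d. Every 1 mg/kg/d dam lay above every 3 mg/kg/d dam, and the controls spanned most of the gap. The log2 difference, 3 against 1 mg/kg/d, was -2.43 ± 0.54 (95% interval -3.57 to -1.29, edgeR adjusted p 0.534), made of 1.33 ± 0.52 and -1.10 ± 0.52 against control. Without control dam 2131 these 2 values were 2.14 and -0.28, and without dam 2132 the first was 0.84. G6pc, which releases free glucose, had 32.8, 10.6 and 37.5 CPM in controls, 110, 33.5 and 67.7 at 1 mg/kg/d, and 8.56, 10.6 and 10.4 at 3 mg/kg/d. Its difference was -2.84 ± 0.52 (-3.94 to -1.74, edgeR adjusted p 0.218, DESeq2 adjusted p 0.00353). Igfbp1, a secreted binding protein repressed by insulin, followed the same order with 46, 24 and 49, then 197, 67.1 and 140, then 16.7, 32.0 and 32.5 (-2.32 ± 0.65, and -1.94 without dam 2132). In the table Pck1 lies at chr3:171213936-171219872 and G6pc at chr10:89285855-89296214 (rn6).

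Lpin1, a phosphatidate phosphatase and coactivator of fat oxidation, had 10.3, 14.5 and 11.9 CPM in controls, 43.4, 24.1 and 22.4 at 1 mg/kg/d, and 14.8, 10.6 and 8.32 at 3 mg/kg/d, a difference between the doses of -1.41 ± 0.29 (edgeR adjusted p 0.388, DESeq2 adjusted p 0.0252). Rnd2, a small GTPase, had 23.7, 37.8 and 23.3, then 88.4, 40.7 and 34.1, then 17.9, 14.9 and 13.0 (-1.83 ± 0.32, edgeR adjusted p 0.218, DESeq2 adjusted p 0.000141). Without dam 2134 of the 1 mg/kg/d group the edgeR adjusted p of Rnd2 was 0.0474, and without dam 2132 its difference was -1.29. Without dam 2132 the difference was -2.36 for G6pc, -1.94 for Pck1, -1.04 for Lpin1 and -0.54 for Tfr2, a transferrin receptor of hepatocytes. Tsku, a secreted protein of the liver, went the other way, with 82.0, 89.1 and 40.9 CPM in controls, 46.3, 50.8 and 86.3 at 1 mg/kg/d, and 98.3, 192 and 141 at 3 mg/kg/d (1.24 ± 0.31).

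Of the 20 tested genes of gluconeogenesis and glycogen, 3 were higher and 4 lower at 3 than at 1 mg/kg/d at an unadjusted p below 0.05. Over all tested genes 593 (6.42%) reached that p, 283 higher (3.06%) and 310 lower (3.36%), and the 593 became 930 without dam 2133 and 1096 without dam 2134. In 4 of the 20 every 1 mg/kg/d dam was above every 3 mg/kg/d dam, and in 4 every one was below, orders found in 401 (4.34%) and 489 (5.29%) of all tested genes. The median log2 difference of the list was 0.01, with 11 estimates above 0 and 9 below. Irs2, an insulin receptor substrate that is raised in fasting and that was chosen after its values were seen, had 3.51, 3.54 and 4.80 CPM in controls, 10.2, 3.72 and 5.16 at 1 mg/kg/d, and 1.25, 1.38 and 2.34 at 3 mg/kg/d, a log2 difference of -1.96 ± 0.45, and of -1.43 without dam 2132. At 10 mg/kg/d Pck1 had 1362, 578 and 467 CPM. Food intake and time since the last meal are not in the labels, so their part in this difference was not tested.

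**Figure D3:**
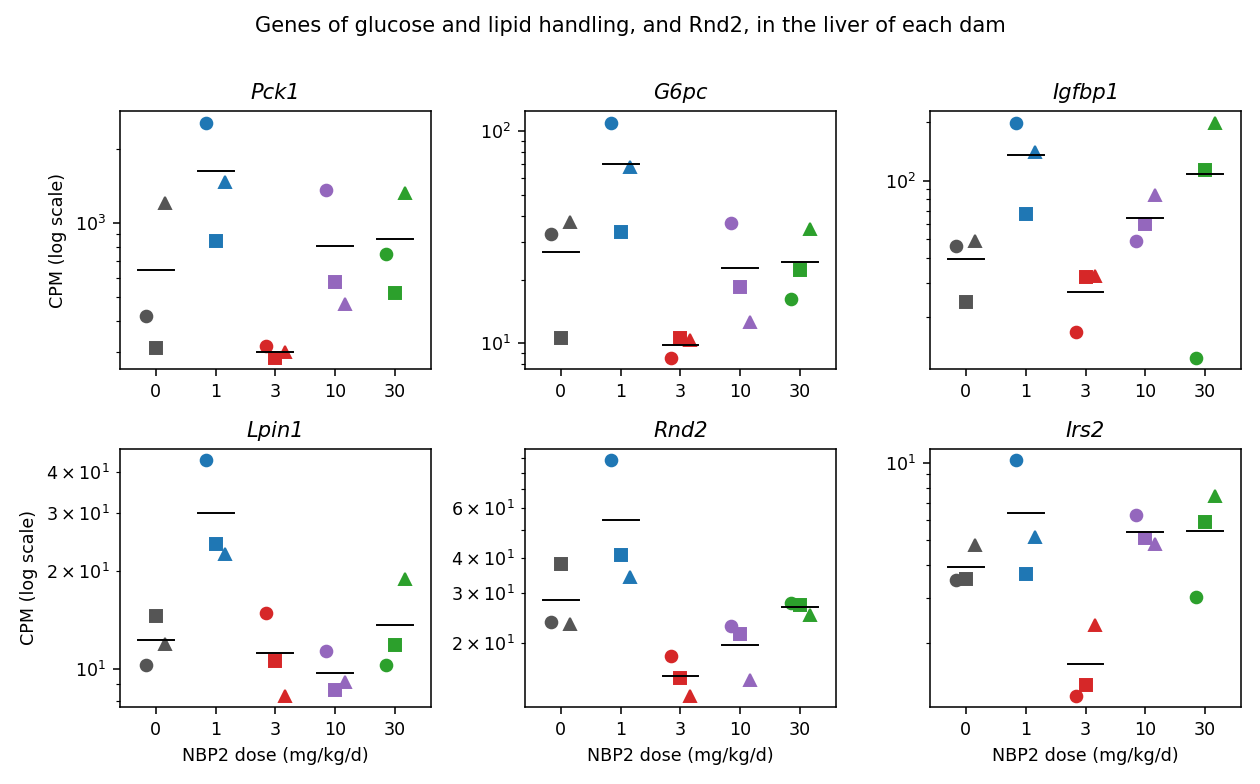
CPM (log scale) of Pck1, G6pc, Igfbp1, Lpin1, Rnd2 and Irs2 by NBP2 dose in mg/kg/d; each point is 1 dam, with the symbol marking the dam within its group, and each bar is the mean of 3 dams. Every 1 mg/kg/d dam is above every 3 mg/kg/d dam in all 6 panels, as for Irs2 with 3.72 to 10.2 against 1.25 to 2.34. Of all tested genes 401 (4.34%) had that order. Pck1, G6pc, Lpin1 and Rnd2 were named for their small p in this difference, and Irs2 after its values were seen. Their order therefore follows in part from the choice of genes.

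Further lists are given here with the shares of all tested genes at an unadjusted p below 0.05, 3.24% higher and 2.66% lower, and a median of all genes of 0.01. Of 17 acute phase genes 0 were higher and 3 lower (Orm1, Lcn2 and Il1r1, median -0.14). Orm1, a plasma acute phase glycoprotein, had 712, 9035 and 313 CPM in controls against 475 to 1305 in the low-dose dams, so its log2 fold change of -1.91 ± 0.65 rests on control dam 2130. Of 7 glucocorticoid-responsive genes 2 were higher, Tat and Mt1 (median 0.18), and of 12 genes of the stress response of the endoplasmic reticulum 1 was higher, Atf4, and 1 lower, Phgdh (median -0.17). Tat, which degrades tyrosine, had 55.3, 58.0 and 52.4 CPM in controls and 62.5 to 113 in the low-dose dams, without overlap (0.51 ± 0.19). None of these passed the adjusted threshold.

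**Figure D4:**
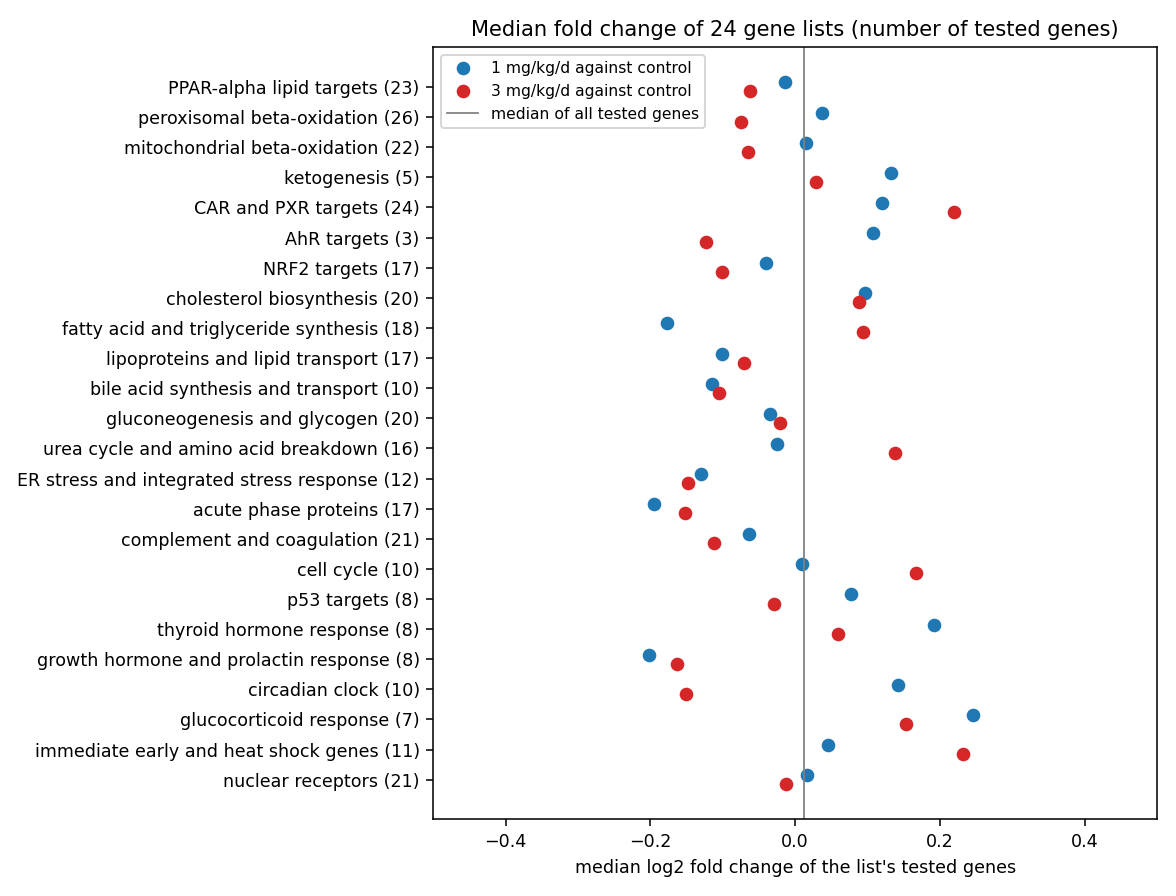
Median log2 fold change of the tested genes of 24 gene lists at 1 (blue) and 3 (red) mg/kg/d against control, with the number of tested genes in parentheses; the grey line is the median of all tested genes, 0.01. The CAR and PXR list is at 0.12 and 0.22 and the PPAR-alpha list at -0.01 and -0.06, and no list carries a test.

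Markers of other cells were summed to see how they lay beside these results. Among the sums above 0 in controls, the haemoglobin, erythroid and pancreas sums had the largest ratios. The erythroid sum is nearly all haemoglobin, with means of 895 of 904 CPM in controls and 2264 of 2281 CPM in the low-dose dams. The summed share of the 5 haemoglobin genes was 497 to 1499 CPM of the library total in controls and 776 to 3792 in the low-dose dams, a log2 ratio of means of 1.34 (exact permutation test over 9 libraries, two-sided p = 0.0833, adjusted over 16 sums 0.267). The ratio was 1.93 without control dam 2129, the highest control, and 1.05 without control dam 2130. Of the 10 erythroid markers on the panel 0 were at 0 in all libraries and 8 were above 0 in all 9, and of the 8 tested 4 were higher at an unadjusted p below 0.05, beside 3.24% of all tested genes. The 5 platelet markers summed to 25.7 to 30.3 CPM in controls and 39.6 to 62.0 in the low-dose dams, without overlap. Of 1243 olfactory, vomeronasal and taste receptor genes, 966 were at 0 in all 9 libraries and 5 were above 0 in all 9. Their sum was 21.8 to 24.7 CPM in controls and 28.2 to 39.6 in the low-dose dams. Both of these sums had an exact permutation p of 0.0119, the smallest that 6 against 3 can give, and 0.0952 after adjustment. The part of these sums in the differences of single genes was not tested.

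The stellate cell markers summed to 577 to 649 CPM in controls and 631 to 1022 in the low-dose dams, Kupffer cell markers to 727 to 1109 and 601 to 899, and hepatocyte markers to 35962 to 51374 and 30004 to 43481. All 3 pairs of ranges overlap. All 11 tested Kupffer cell markers, Marco among them, had low-dose estimates below 0 (median -0.23). At an unadjusted p below 0.05, 0 were higher and 2 lower, Marco and Csf1r, beside 3.24% and 2.66% of all tested genes. The Kupffer cell sum had an exact permutation p of 0.440 (0.587 after adjustment), and its highest control was dam 2130 at 1109 CPM. In the GD18 dams all 11 had estimates above 0 (median 0.29), and that difference between ages was not tested for the list. The pancreas sum of 569 to 1324 and 832 to 4683 CPM (log2 ratio 1.31) was made of Cpa1, while Cela1, Pnlip and Ctrb1 were at 0 in all 9 libraries and Prss1 reached at most 0.20. No sum passed the adjusted threshold. With 16 sums adjusted and 0.0119 the smallest exact permutation p possible, no single sum could have passed alone. The lack of a pass therefore decides little about any 1 sum.

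**Figure D5:**
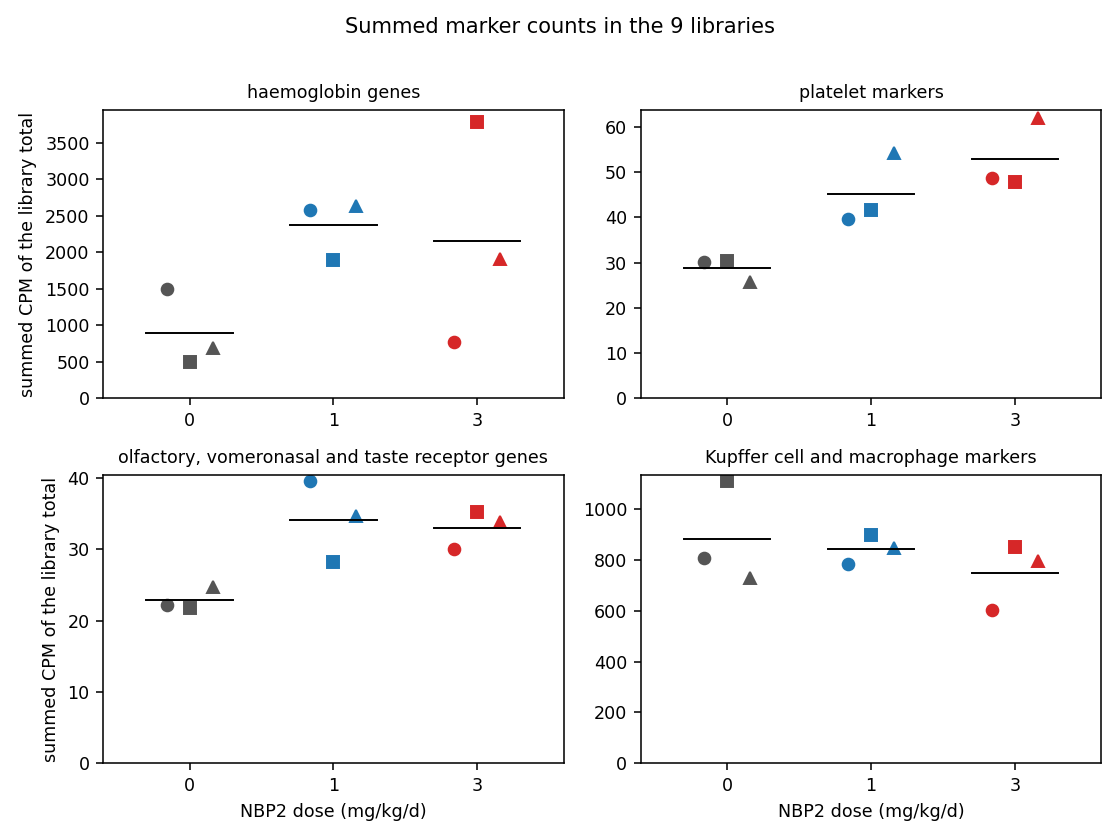
Summed CPM of the library total for haemoglobin genes, platelet markers, receptor genes of smell and taste, and Kupffer cell markers at 0, 1 and 3 mg/kg/d; each point is 1 dam and each bar the mean of 3 dams. Platelet markers and receptor genes do not overlap between control and low-dose dams (25.7 to 30.3 against 39.6 to 62.0, and 21.8 to 24.7 against 28.2 to 39.6), whereas haemoglobin and Kupffer cell sums do.

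The same doses were compared with their own controls in the GD18 dams, where 0 of 13783 genes (0%) passed and 898 (6.52%) had an unadjusted p below 0.05 in edgeR, and DESeq2 called 0. That count was 2431 without dam 2078, 573 without control dam 2070, 528 without dam 2079 and 300 with no term for study block. Cyp2b1 had a log2 fold change of 1.44 ± 0.44 there (edgeR adjusted p 0.726), beside 1.46 ± 0.30 at GD21, and the difference between the ages was 0.07 ± 0.65. Cyp2b2 had 3.60 ± 0.80 at GD18, with a difference of -1.75 ± 1.02, and Cyp3a23/3a1 had 1.08 ± 0.34. Dhrs7l1 had 0.97 ± 0.41 at GD18. For Smpdl3a the GD18 value was -0.33 ± 0.25 and for Thpo -0.19 ± 0.16, against the -0.995 and 0.69 of GD21. Hba-a3, a haemoglobin chain, had -0.55 ± 0.30 at GD18 and 1.60 ± 0.57 at GD21. In the test of the difference between the ages 0 of 14621 genes (0%) passed and 716 (4.9%) had an unadjusted p below 0.05 in edgeR, and DESeq2 called 1. Age and study block are the same split and cannot be told apart.

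Of the 31 genes that passed at 10 or 30 mg/kg/d, the median log2 fold change was 0.05 at 1, 0.15 at 3, 0.86 at 10 and 2.03 at 30 mg/kg/d. These comparisons share their 3 controls. The 31 were picked by their values at 10 or 30 mg/kg/d, so the medians at those doses follow in part from that choice. Alas1, the first enzyme of haem synthesis, had 0.43, 0.72, 1.64 and 2.50 in that order of doses, and Aldh1a1, a retinal dehydrogenase, had -0.01, -0.13, 1.02 and 2.26. Of the 31, Cyp2b1 and Gsta5 had every low-dose dam above every control, an order that 129 of all 9238 tested genes (1.4%) had. Cyp2b1 is the 1 gene of the 31 that both DESeq2 and the fit on 9 libraries called with the low doses pooled.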

How the data were processed

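Liver RNA of 15 GD21 dams (5 dose groups of 3) and of 30 GD18 dams was analysed. The authors deposited estimated counts per gene, not normalised, for 20833 genes in 90 libraries, and all columns matched a sample (0 did not). Named in the submitters' processing notes are rn6 as the build, Partek, and STAR 2.7.3a, with no role given. How reads were shared between near copies is not given in the sources used here. Of the values in the 9 libraries 5.85% are not whole. The design had assumed whole counts, so values were rounded first.

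Genes were filtered with filterByExpr (count minimum 10, smallest group 3), which left 9238, scaled by TMM factors (0.928 to 1.11 in the 9 libraries) and tested with edgeR 4.0.16 (R 4.3.3) by two-sided quasi-likelihood F tests, with 1 coefficient per dose over all 15 libraries. The pooled contrast is the mean of the 2 low-dose coefficients minus control. P values were adjusted by Benjamini-Hochberg over all tested genes, with a threshold of 0.05. GD18 fits held study block as a term. Marker sums were tested by exact permutation over samples. The scripts were checked on simulated data. Alternatives were RLE and upper quartile factors, no filter, DESeq2 1.42.0, a robust fit, the 6 low-dose libraries as 1 group, the 9 libraries alone, no study block term (GD18), and leaving out each library.

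Dams are separate animals per the labels. For pairs of dams within a group, chi-square over its degrees of freedom lay between 14.0 and 56.6 (about 1 under counting error only), so the spread between dams sets the precision. The labels mention no molecular identifiers.

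Genes were named by rule: those past the threshold with every low-dose library beyond every control (none were), a set of 22 reference genes, and for each comparison without 10 calls the 10 genes of smallest unadjusted p whose mean log2 CPM reached 3. Some of the genes so named are not reported here, though they stay in all fits and counts. The members, lists and rules were chosen with earlier results of these data known, and lists are described by counts and medians with no test. Promoter sequences come from RefSeq (GRCr8), a build that differs from that of the counts.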

Additional observations from a re-analysis of the deposited data

Results flagged for a closer look

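In 11 of the 63 values examined, 1 of the 6 low-dose libraries stood apart: its gap to the nearest of the others, divided by the range of all 6, was above Dixon's 95% critical value. That critical value allows about 1 in 20 such gaps for a single set of normally distributed values. The 63 values share the same 6 libraries, mix both low doses and include genes named for small p in these data. The 11 therefore cannot be set against that share. In 8 of the 11 the library was that of dam 2132 at 1 mg/kg/d. Its median correlation with the other libraries was 0.941, against 0.970 to 0.975 for the other low-dose libraries, and its score on the first principal component was -58.5, against -9.99 to 2.85. In this dam Rab17, a small GTPase of epithelial transport, had 49.9 CPM against 11.3 to 18.1, and Rnd2 had 88.4 against 13.0 to 40.7. Slc25a47, a mitochondrial carrier of hepatocytes, had 111 against 23.2 to 53.5, and Tfr2 had 64.4 against 18.4 to 33.8. Smpdl3a was also highest there, at 310 against 189 to 221, and so nearest to the controls. The B and plasma cell markers summed to 25.1 CPM of the total in this dam and to 7.93 to 12.8 in the others.

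In the other 3 values another dam stood apart. Marc1 had 744 CPM in dam 2135 at 3 mg/kg/d and 395 to 490 in the others. The hepatocyte markers summed to 30004 CPM of the total in dam 2136 at 3 mg/kg/d, against 38986 to 43481. The placental trophoblast markers summed to 0.615 in dam 2134 at 1 mg/kg/d, against 0 to 0.200, a level of a few counts.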

How the results depend on the processing

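No paired analysis was possible because the dose groups share no dam. With no filter on low counts edgeR called 107 genes for the low doses together, 186 for 1, 79 for 3, 145 for 3 against 1, 62 for 10 and 215 for 30 mg/kg/d. In that fit 16683 genes and prior degrees of freedom of 1252 stand in place of 9238 and 5.78. DESeq2 called 3, 4, 5 and 4 genes in the 4 low-dose comparisons, 89 at 30 mg/kg/d and 1 for the difference between ages. The fit on 9 libraries called 1 gene, Cyp2b1, for the low doses together and 1 for 3 mg/kg/d. RLE and upper quartile factors, the merged group and the robust fit gave 0 in each low-dose comparison they were run on. The alternatives for 10 and 30 mg/kg/d, and the robust fit for the single doses, were chosen after seeing the data.

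Leaving out 1 library at a time gave 0 calls for the low doses together, for 1 and for 3 mg/kg/d. It gave 0 to 1 for 3 against 1 (Rnd2, without dam 2134), 3 to 6 for 10 and 10 to 55 for 30 mg/kg/d. The GD18 comparison gave 0 to 35, with 35 without the 3 mg/kg/d dam 2078 and 1 without dam 2121 at 1 mg/kg/d. The difference between ages gave 0 to 1, with 1 without control dam 2131.

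Of 1568 values of single genes and sums under alternatives, 1482 kept their direction and side of the threshold, 49 passed it and 37 changed sign. All 37 sign changes came from leaving out a library. The log2 ranges over left-out libraries were as follows for both doses together. They were -0.10 to 0.43 for Ehhadh, -0.22 to 0.93 for Pck1, -0.18 to 0.61 for Fasn, -4.00 to 3.73 for Acot1, -0.73 to 0.56 for Vnn1, -0.0855 to 0.22 for Cyp4a2 and -0.0859 to 0.22 for Cyp4a3. At 1 mg/kg/d they were -0.67 to 0.13 for Fasn, -0.0529 to 0.19 for Cyp4a2, -0.0527 to 0.20 for Cyp4a3, -1.89 to 5.36 for Acot1, -0.52 to 0.78 for Vnn1, -0.23 to 0.30 for Cyp3a23/3a1, -0.0392 to 0.13 for Ephx1 and -0.42 to 0.0379 for Fabp1. At 3 mg/kg/d they were -0.21 to 0.32 for Ehhadh, -0.18 to 0.24 for Cyp4a1, -0.22 to 0.29 for Cyp4a2 and for Cyp4a3, -6.69 to 2.11 for Acot1, -0.95 to 0.34 for Vnn1, -0.13 to 0.69 for Cpt1a and -0.20 to 0.42 for Pdk4. For the difference between ages Orm1 ranged from -2.75 to 0.49. The cause of these changes was not tested.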

Other observations

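From dam to dam 3 genes were either near 0 or high, with a gap of at least 4 in log2(CPM + 1) and at least 3 of the 15 GD21 dams on each side. They were chosen after their values were seen. Nfs1, the mitochondrial cysteine desulfurase that supplies sulfur for iron-sulfur clusters, was at most 0.304 CPM in 11 dams and 74.5 to 88.5 in 4 dams: 1 at 1, 1 at 3 and 2 at 10 mg/kg/d. Its low-dose log2 fold change of 10.25 (edgeR adjusted p 0.834) therefore rests on 2 of the 6 low-dose dams, and DESeq2 counted it among its calls. The same gene was high in 9 of 30 GD18 dams, in 3 of 15 GD21 fetal libraries and in 15 of 30 GD18 fetal libraries.

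Akr1c1, an aldo-keto reductase, was at most 2.28 CPM in 9 dams and 79.0 to 114 in 6, of which 1 was a control, 1 was at 1, 1 at 3, 2 at 10 and 1 at 30 mg/kg/d. It was high in 10 of 30 GD18 dams and in 0 of 15 and 0 of 30 fetal libraries. Spin1, a reader of histone methylation, was at 0.304 to 0.413 CPM in 3 dams, a control and 2 at 1 mg/kg/d, and at 35.6 to 115 in 12. It was high in 27 of 30 GD18 dams, in 10 of 15 GD21 fetal libraries and in 27 of 30 GD18 fetal libraries.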
